A study of Mus musculus with 6 samples.

Results

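The small leucine-rich proteoglycans are secreted matrix proteins built around a stretch of leucine-rich repeats. Followed here were 10 genes listed under this name: Ogn, Dcn, Lum, Bgn, Fmod, Omd, Prelp, Aspn, Podn and Islr, the last of which encodes a membrane-anchored protein. Their probe sets were taken by name, as every probe set whose annotated gene symbol is one of the 10. This gave 21 of the 45037 probe sets analysed. The 10 genes were chosen with earlier results of these data known, so their counts beside those of all genes are a description. RNA came from cerebellar astrocytes (3 arrays) and neocortical astrocytes (3 arrays) of mice, and each array was hybridised with biotin-labelled amplified RNA made from total RNA. The labels name the strain ICR on the neocortical arrays and no strain on the cerebellar ones, so a difference of strain, if there was one, cannot be told apart from the difference of region. No genotype, treatment, age or culture condition is given in the labels of either group, nor whether the 3 samples in each are different animals or cell preparations. The p-values therefore describe the spread among these 6 samples alone, and that spread may be technical.

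Small leucine-rich proteoglycans bind collagen and help to set how its fibrils assemble, and several of them also hold growth factors such as transforming growth factor beta in the matrix or bind receptors on the cell surface. Many carry chains of chondroitin, dermatan or keratan sulphate. In the brain the fibrillar collagens they bind are found mainly in the meninges and around blood vessels, where fibroblasts make much of this family. Their genes lie in small groups on the chromosomes: Ecm2, Aspn, Omd and Ogn follow each other on mouse chromosome 13, Dcn, Lum and Kera on chromosome 10, and Optc, Prelp and Fmod on chromosome 1.

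Of the 10 genes, 4 were lower in cerebellar astrocytes (Ogn, Fmod, Islr and Omd), none was higher, 5 did not pass the test (Prelp, Podn, Bgn, Lum and Dcn) and Aspn was too dim to be tested. A gene was read from its brightest probe set and passed when its Benjamini-Hochberg adjusted p from limma was under 0.05. Bgn alone was higher at an unadjusted p under 0.05, and its adjusted p was over the threshold. Over all 12637 genes tested, the share called lower in cerebellar astrocytes was 7.47% and the share called higher 5.40%, or 12.9% in all, with a median log2 difference of -0.0151. Of the 21 probe sets, 10 were lower, none was higher, 8 did not pass and 3 were too dim, where 5.80% of all tested probe sets were lower and 4.95% higher. In bulk RNA, fewer cells of a type and less RNA per cell cannot be told apart. The promoters of the 4 lower genes are shown here, as the letters that stand before genes moving in the same direction. The promoter table of RefSeq, on build GRCm38.p6, matched 8 of the 10 genes, all but Dcn and Lum. The 250 bases before each start are written 5′ to 3′ along the gene, with matches to the TATA box letters TATAAA in capitals.
Ogn (chr13:49607765-49608014, plus strand): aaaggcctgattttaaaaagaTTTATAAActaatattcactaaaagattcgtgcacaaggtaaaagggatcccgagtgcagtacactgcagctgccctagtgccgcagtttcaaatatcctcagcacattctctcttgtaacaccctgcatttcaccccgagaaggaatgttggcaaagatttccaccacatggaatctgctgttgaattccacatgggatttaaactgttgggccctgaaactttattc
Omd (chr13:49582212-49582461, plus strand): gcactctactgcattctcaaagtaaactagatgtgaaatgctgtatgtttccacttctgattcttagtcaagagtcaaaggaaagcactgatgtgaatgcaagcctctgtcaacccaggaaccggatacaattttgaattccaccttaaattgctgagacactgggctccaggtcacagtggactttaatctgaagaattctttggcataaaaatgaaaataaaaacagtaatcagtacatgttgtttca
Fmod (chr1:134037004-134037253, plus strand): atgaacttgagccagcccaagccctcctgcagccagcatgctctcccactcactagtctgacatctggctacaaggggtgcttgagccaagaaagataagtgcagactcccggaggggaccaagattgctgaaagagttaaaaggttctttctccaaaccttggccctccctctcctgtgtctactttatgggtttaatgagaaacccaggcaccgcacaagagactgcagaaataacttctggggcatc
Islr (chr9:58158555-58158804, minus strand): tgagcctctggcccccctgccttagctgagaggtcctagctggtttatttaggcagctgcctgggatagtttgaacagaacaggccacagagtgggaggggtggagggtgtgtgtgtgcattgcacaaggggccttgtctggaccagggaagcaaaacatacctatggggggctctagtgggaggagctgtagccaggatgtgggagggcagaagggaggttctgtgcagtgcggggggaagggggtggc

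These letters were searched on both strands for the TATA box (TATAAA), the AP-1 site (TGANTCA), the GC box (GGGCGG) and a homeodomain core (TAATTA). Ogn had 2 overlapping TATAAA matches, on opposite strands, beginning 229 and 227 bases before the start. Omd, Fmod and Islr had no match to any of the 4 motifs in this window. Among the other genes matched, Aspn also had 2 TATAAA matches, beginning 207 and 178 bases before the start, Bgn and Podn held GC boxes, and Prelp had no match. Over all 32851 promoters of the table, 12.4% held TATAAA, 6.75% the AP-1 letters, 32.7% the GC box and 4.84% the homeodomain core. The GC content was 42% for Ogn, 38.4% for Omd, 51.2% for Fmod and 59.6% for Islr.

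Ogn encodes osteoglycin, also called mimecan, a proteoglycan first known from bone and cornea that takes part in collagen fibril growth. Its brighter probe set read 4887, 5281 and 9632 units on the cerebellar arrays, against 33576, 29930 and 39601 units on the neocortical arrays. Every cerebellar array lay below every neocortical one, with the third cerebellar array the highest of its group. The means were 6600 ± 2633 units in cerebellar and 34369 ± 4884 units in neocortical astrocytes (SD, n = 3 each), a log2 difference of -2.44 ± 0.23 (SE), or 5.43-fold lower in cerebellar astrocytes (limma adjusted p = 0.000447). The other probe set of Ogn gave the same direction, with 4477, 6246 and 10190 units on the cerebellar arrays and 31374, 27835 and 31336 units on the neocortical arrays. Its log2 difference was -2.20 ± 0.24 (SE, limma adjusted p = 0.000924). The call held in each of 17 alternative settings, with adjusted p from 1.19e-05 to 0.0304.

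Omd encodes osteomodulin, a keratan sulphate proteoglycan of mineralised tissue, and is the gene next to Ogn. Its probe set read 1587, 2064 and 1894 units on the cerebellar arrays, against 3608, 2835 and 3194 units on the neocortical arrays. The groups did not overlap. Cerebellar astrocytes were 1.74-fold lower, with a log2 difference of -0.80 ± 0.15 (SE, limma adjusted p = 0.0104). Without neocortical replicate 1 or 3 the adjusted p was 0.0549 or 0.0509, and without the filter on dim probe sets it was 0.0604, past the threshold in none of these. Relative to the neocortical mean, Ogn minus Omd was -1.79, -2.06 and -1.07 on the cerebellar arrays and -0.20, -0.017 and 0.22 on the neocortical arrays (log2). The mean difference was -1.64. The groups did not overlap, and the two-sided exact permutation p of 0.1 is the smallest that 3 arrays against 3 allow (adjusted p = 0.15 over 3 pairs of neighbours).

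Aspn, the third of these neighbours, encodes asporin, which binds collagen and transforming growth factor beta. Its brighter probe set read 70.1, 105.3 and 86.6 units on the cerebellar arrays and 118.2, 94.9 and 77.8 units on the neocortical arrays. All 6 values lay within the range of the 24 bacterial control probe sets, which read from 2.9 to 269.2 units as deposited. The 95th percentile of these control values was 116 units. The second probe set read 58.5, 59.6 and 89.1 units on the cerebellar arrays and 28.7, 8.05 and 28.6 units on the neocortical arrays, 5 of the 6 values under the floor of 62.2 units. Both means were below the 183.7 units needed to enter the test, so no regional difference in Aspn was detectable here. Ecm2, on the far side of Aspn, was not past the threshold, with 348 ± 40.9 and 255 ± 67.5 units (SD, n = 3 each) in cerebellar and neocortical astrocytes.

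**Figure D1:**
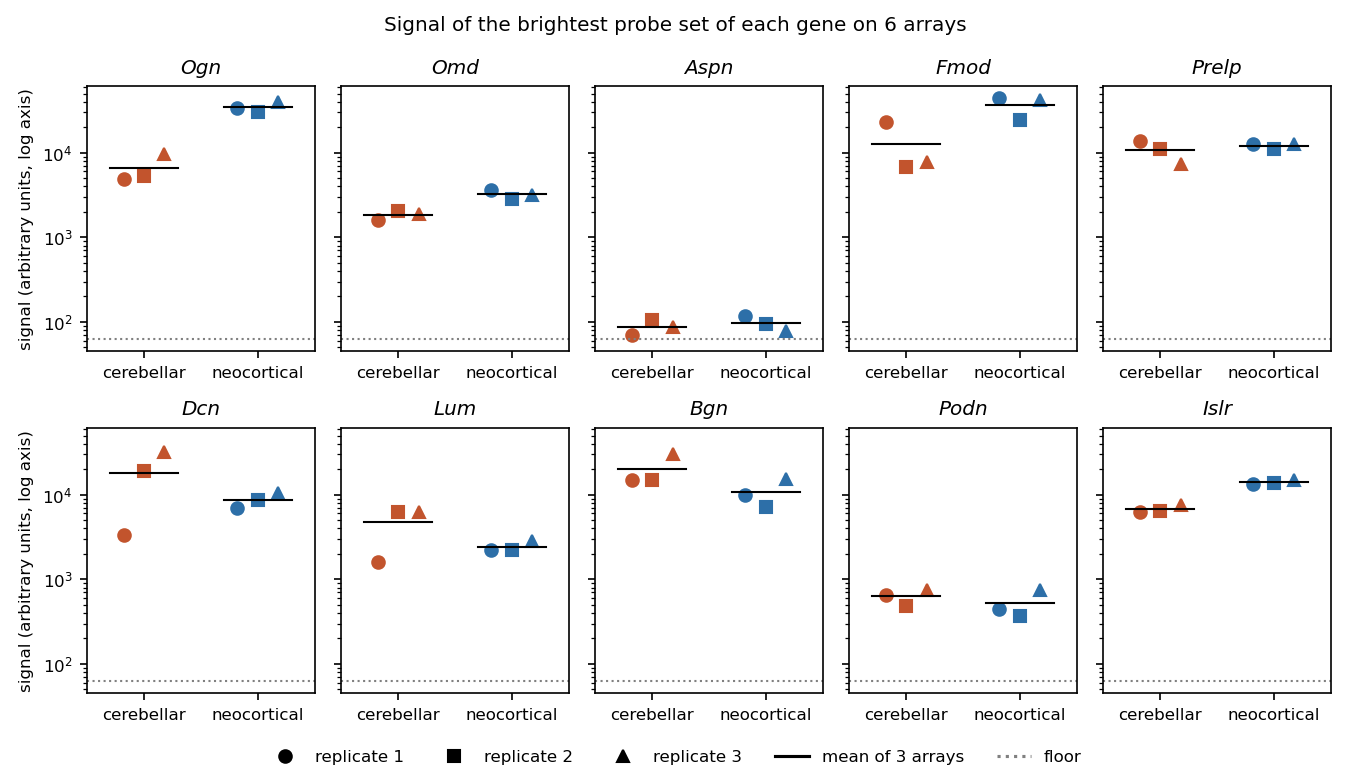
Signal of the brightest probe set of each of the 10 genes on the 6 arrays, in arbitrary units on a log axis, with cerebellar arrays on the left of each panel and neocortical arrays on the right. Symbols mark the replicate number, lines the mean of 3 arrays and the dotted line the floor of 62.2 units. Ogn, Omd, Fmod and Islr lie lower on the cerebellar side with no overlap, Aspn lies near the floor on both sides, and Dcn spreads from 3367 to 32070 units among the cerebellar arrays.

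Fmod encodes fibromodulin, a keratan sulphate proteoglycan that binds type I collagen and lysyl oxidase, the enzyme that cross-links it. The brightest of its 6 probe sets read 22984, 6774 and 7842 units on the cerebellar arrays, against 44262, 24291 and 41627 units on the neocortical arrays. The groups did not overlap, but the highest cerebellar array (replicate 1) came close to the lowest neocortical one (replicate 2). Cerebellar astrocytes were 3.32-fold lower, with a log2 difference of -1.73 ± 0.42 (SE, limma adjusted p = 0.0321). All 6 probe sets passed in this direction, with log2 differences from -2.31 to -1.51, although 5 of them carry the _x suffix that Affymetrix gives to probe sets that can also match other sequences. The remaining probe set read 7219, 2540 and 2506 units on the cerebellar arrays and 14008, 6930 and 13235 units on the neocortical arrays, which overlapped. Without cerebellar replicate 2 or 3 the adjusted p was 0.0827 or 0.0998, and without neocortical replicate 1 or 3 it was 0.112 or 0.117. It was 0.203 without the filter on dim probe sets and 0.102 without a variance trend. Without cerebellar replicate 1 the log2 difference was -2.28 (adjusted p = 0.000839).

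Prelp, the neighbour of Fmod, encodes a basic leucine-rich protein that ties heparan sulphate proteoglycans of basement membranes to collagen. It read 13779, 11114 and 7416 units on the cerebellar arrays and 12690, 11103 and 12642 units on the neocortical arrays. The cerebellar arrays lay on both sides of the neocortical ones. The log2 difference was -0.22 ± 0.20 (SE), with a 95% interval from -0.66 to 0.23 (limma adjusted p = 0.528), and it was 0.029 without cerebellar replicate 3. The second probe set of Prelp had a log2 difference of -0.12 (limma adjusted p = 0.817). Relative to the neocortical mean, Fmod minus Prelp was -0.81, -2.26 and -1.47 on the cerebellar arrays and 0.25, -0.42 and 0.17 on the neocortical arrays (log2). The mean difference was -1.52, with no overlap (two-sided exact permutation p = 0.1, adjusted p = 0.15 over the 3 pairs). Optc, on the other side of Prelp, was too dim to be tested, with 124 ± 70.1 and 93.5 ± 66.6 units (SD, n = 3 each) in cerebellar and neocortical astrocytes.

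Islr encodes meflin, a membrane-anchored protein with leucine-rich repeats and an immunoglobulin domain, known as a marker of mesenchymal stromal cells. It read 6296, 6366 and 7660 units on the cerebellar arrays, against 13545, 13846 and 14805 units on the neocortical arrays. It had the tightest groups of the 9 genes tested, and they did not overlap. Cerebellar astrocytes were 2.08-fold lower, with a log2 difference of -1.06 ± 0.10 (SE, limma adjusted p = 0.000487), and the call held in each of 17 alternative settings (adjusted p from 9.38e-05 to 0.016). Islr2, its neighbour on chromosome 9, was too dim to be tested.

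**Figure D2:**
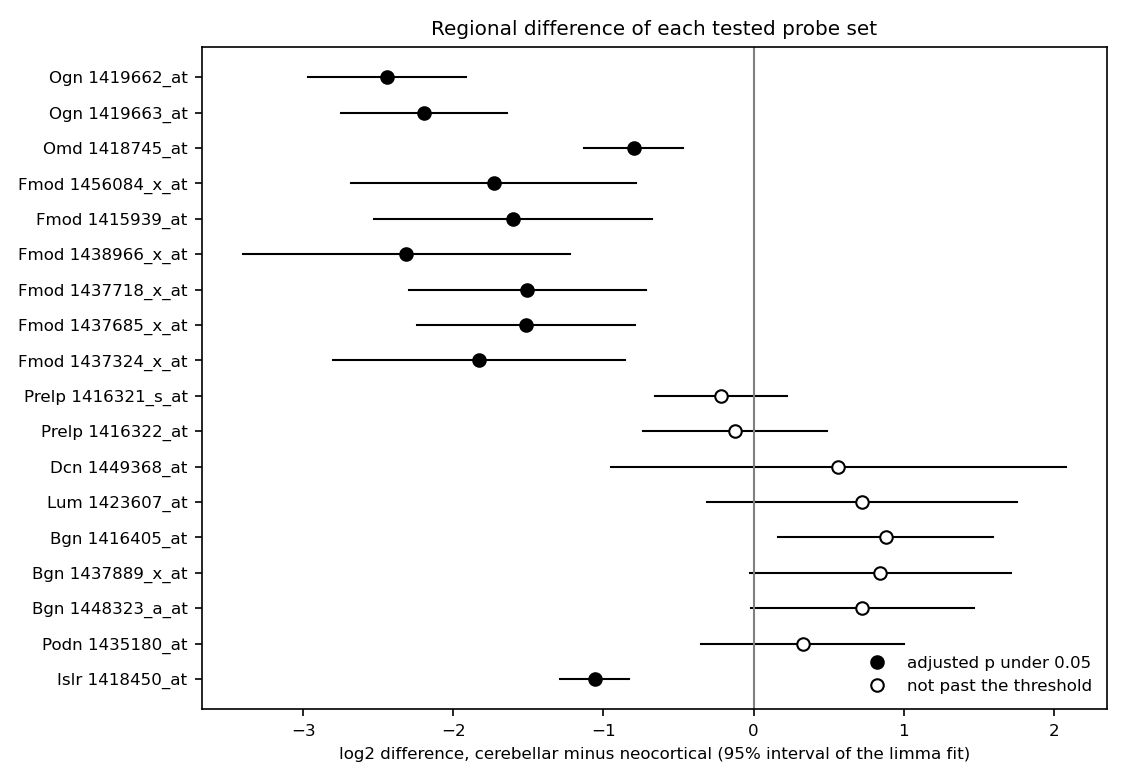
Log2 difference, cerebellar minus neocortical, of each of the 18 probe sets tested, with the 95% interval of the limma fit as a line. Filled circles passed an adjusted p under 0.05. Both probe sets of Ogn, all 6 of Fmod and those of Omd and Islr lie below 0, and the interval of Dcn is the widest, from -0.95 to 2.08.

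Dcn encodes decorin, which coats collagen fibrils and binds transforming growth factor beta and several receptor tyrosine kinases. Its main probe set read 3367, 19082 and 32070 units on the cerebellar arrays and 6981, 8668 and 10532 units on the neocortical arrays. Cerebellar replicate 1 lay below all neocortical arrays and the other cerebellar arrays lay above them all, a spread of 9.53-fold within the cerebellar group against 1.51-fold within the neocortical group. The log2 difference was 0.56 ± 0.67 (SE), with a 95% interval from -0.95 to 2.08 (limma adjusted p = 0.645). Without cerebellar replicate 1 it was 1.52 (adjusted p = 0.00506), and without cerebellar replicate 3 it was -0.11 (adjusted p = 0.939). The second probe set of Dcn read at most 103.9 units on any array and was not tested.

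Lum encodes lumican, a keratan sulphate proteoglycan that spaces collagen fibrils in the cornea, and is the neighbour of Dcn. It read 1599, 6274 and 6242 units on the cerebellar arrays and 2205, 2202 and 2871 units on the neocortical arrays. As for Dcn, cerebellar replicate 1 lay below every neocortical array and the other cerebellar arrays above. The log2 difference was 0.72 ± 0.46 (SE), with a 95% interval from -0.31 to 1.76 (limma adjusted p = 0.356), and 1.38 without cerebellar replicate 1 (adjusted p = 0.00111). Dcn minus Lum differed by -0.16 between the groups on the log2 scale (two-sided exact permutation p = 0.7, adjusted p = 0.7 over the 3 pairs). Kera, the next gene in this row, was too dim to be tested. Epyc, which encodes the related epiphycan, did not pass, with 411 ± 393 and 291 ± 133 units (SD, n = 3 each) in cerebellar and neocortical astrocytes and its highest array, at 863 units, cerebellar replicate 3.

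Bgn encodes biglycan, a relative of decorin that also signals through Toll-like receptors when released from the matrix. It read 14985, 14926 and 29991 units on the cerebellar arrays and 9827, 7139 and 15305 units on the neocortical arrays. The groups overlapped through neocortical replicate 3. The log2 difference was 0.88 ± 0.32 (SE), with a 95% interval from 0.16 to 1.60 before adjustment (limma adjusted p = 0.114), and all 3 probe sets missed the threshold, with log2 differences from 0.73 to 0.88. With the replicate number as a block, Bgn was higher in cerebellar astrocytes (adjusted p = 0.00155). It was the one call among the 10 genes that the block added. Podn, which encodes podocan, read 660.1, 479.4 and 755.9 units on the cerebellar arrays and 446.5, 366.9 and 740.6 units on the neocortical arrays, with overlapping groups. Its log2 difference was 0.33 ± 0.30 (SE), with a 95% interval from -0.35 to 1.00 (limma adjusted p = 0.537).

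**Figure D3:**
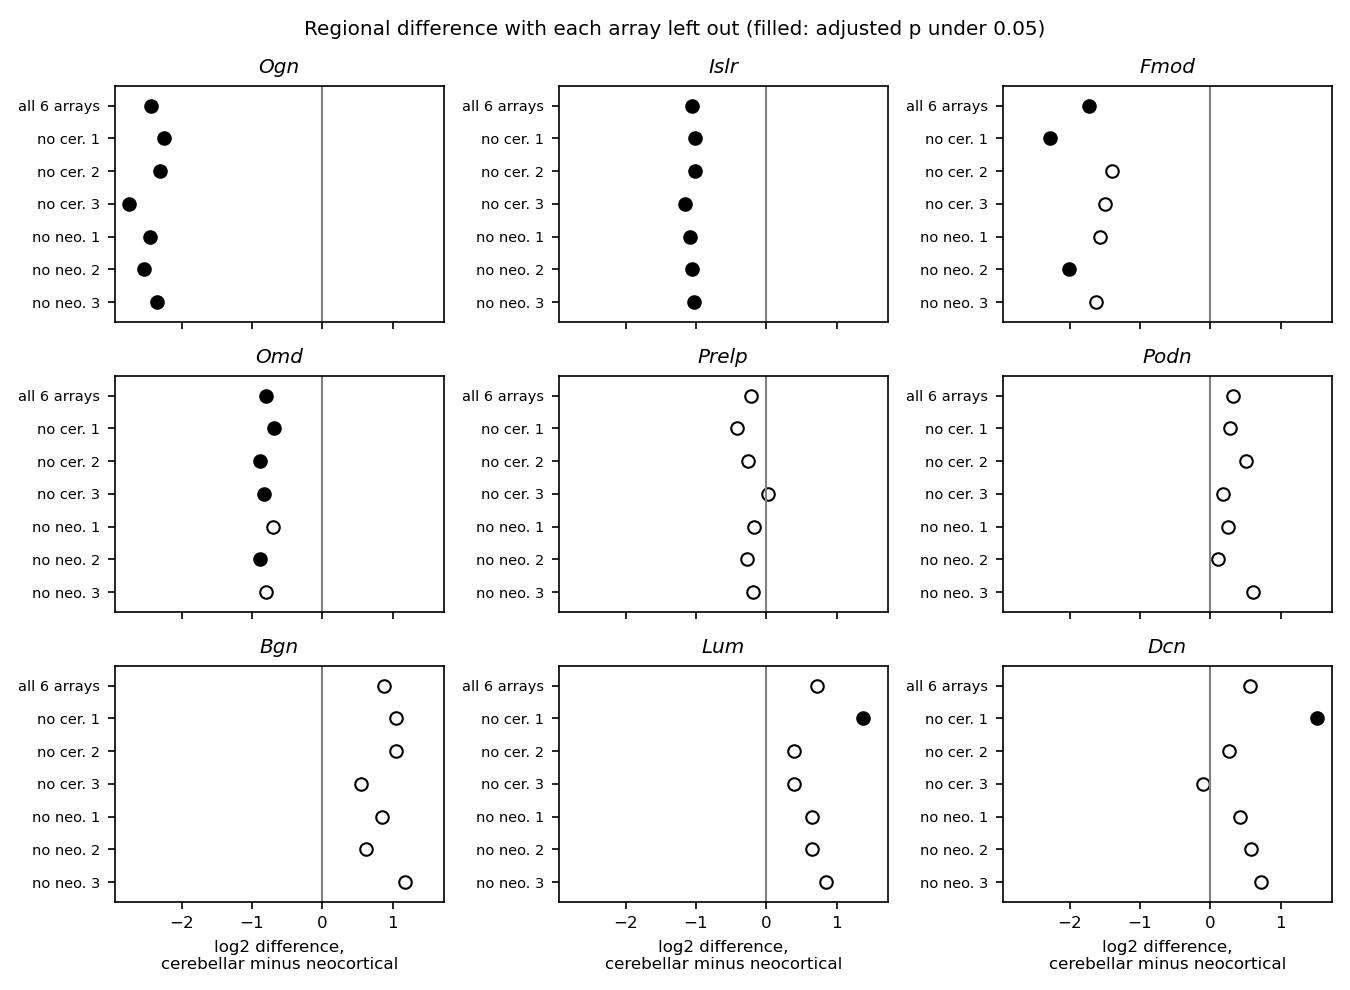
Log2 difference, cerebellar minus neocortical, of the 9 tested genes with all 6 arrays and with each array left out in turn, filled where the adjusted p was under 0.05. Ogn and Islr stay filled throughout, Fmod and Omd lose the call without neocortical replicate 1 or 3, Fmod also without cerebellar replicate 2 or 3, and Dcn and Lum are filled only without cerebellar replicate 1, where they reach 1.52 and 1.38.

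Most markers of fibroblasts and meningeal cells moved with Dcn and Lum among the cerebellar arrays. Of 15 such markers on the array, none of them among the 10 genes, 11 were lowest on replicate 1 of the 3 cerebellar arrays and 13 were highest on replicate 3. The ranks used signal before the floor, and Slc22a6, counted in both, lay under the floor of 62.2 units on all 3 cerebellar arrays. For the 14 that entered the test, the median deviation in log2 signal from each marker's neocortical mean came to -0.47, 0.58 and 1.39 in cerebellar replicates 1, 2 and 3, against -0.21, -0.17 and 0.38 in neocortical replicates 1, 2 and 3. Col3a1, a fibrillar collagen, read 8805, 49855 and 90464 units on the cerebellar arrays and 15060, 15125 and 26657 units on the neocortical arrays. Aldh1a2, a retinoic acid synthesising enzyme of the meninges, read 2576, 7394 and 9891 units on the cerebellar arrays and 3184, 3239 and 4579 units on the neocortical arrays. Not every marker ran this way. Col1a1 read 24163, 21210 and 32246 units on cerebellar replicates 1, 2 and 3, lowest on replicate 2. Twist1 ran the opposite way, at 1852, 1653 and 1490 units on these arrays. The summed signal of the list ran from 53413 to 206350 units on cerebellar and from 51778 to 89866 units on neocortical arrays, which overlapped (two-sided exact permutation p = 0.3). Replicate 1 was also the lowest cerebellar array for 8 of 8 microglial, 8 of 10 astrocyte and 4 of 7 endothelial markers. It was lowest for 2 of 6 oligodendrocyte lineage, 2 of 8 mural, 1 of 5 choroid plexus and 1 of 8 neuronal markers. Among those counted, endothelial Pecam1 and oligodendrocyte lineage Mog lay under the floor on every array. Replicate 3 was highest for 6 of 10 astrocyte, 4 of 7 endothelial and 0 of 8 microglial markers. The part of any of these cells in the values of Dcn, Lum and Bgn was not tested.

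Of the 4 lower genes, Ogn and Islr were lowest on cerebellar replicate 1 and highest on replicate 3. The median of the tested fibroblast and meningeal markers ran in the same order. Omd was also lowest on cerebellar replicate 1, and highest on replicate 2. Fmod was highest on cerebellar replicate 1, where 11 of the 15 fibroblast and meningeal markers were lowest. Without cerebellar replicate 1, the log2 differences were -2.25 for Ogn, -2.28 for Fmod, -0.69 for Omd and -1.01 for Islr, and all 4 passed. Of the 15 fibroblast and meningeal markers, Twist1 alone passed, and it was higher in cerebellar astrocytes (1665 ± 181 units, against neocortical 817 ± 164 units, SD, n = 3 each, limma adjusted p = 0.00961). The part of fibroblasts and meningeal cells in the values of the 4 lower genes was not tested either.

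**Figure D4:**
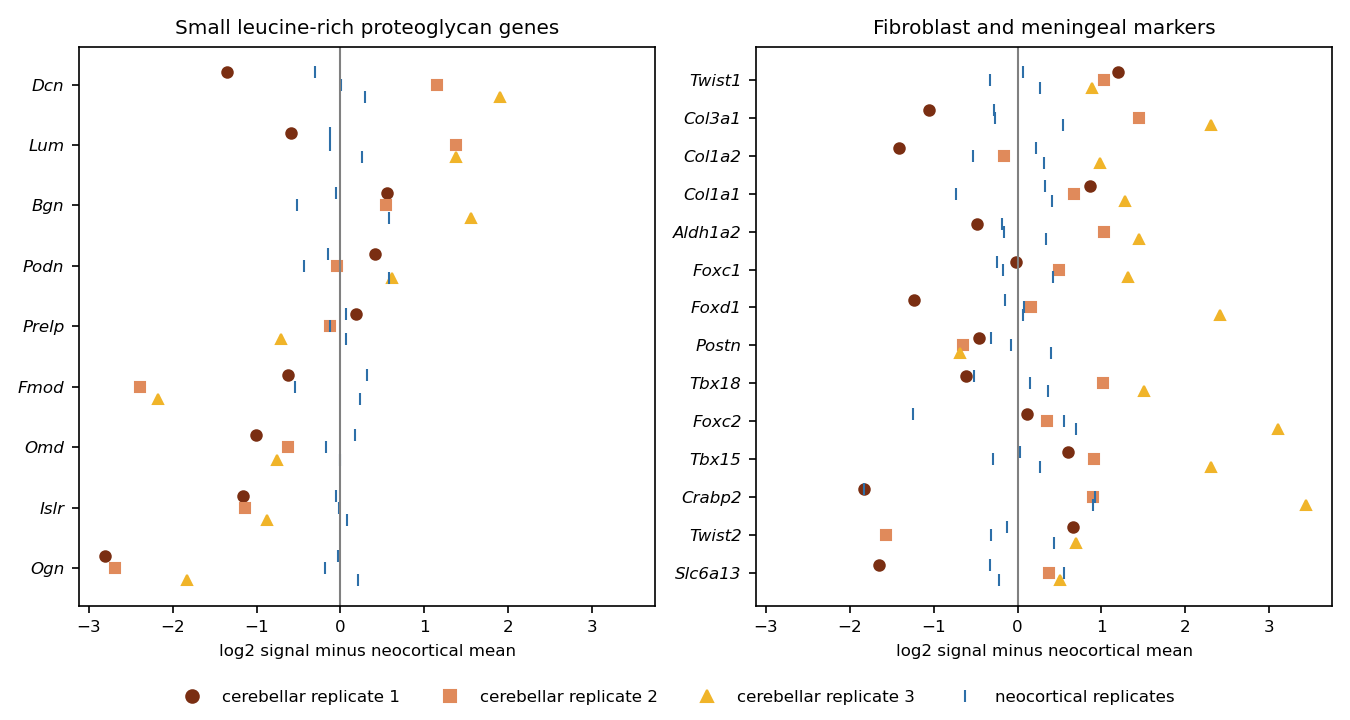
Log2 signal relative to the neocortical mean for the 9 tested genes (left) and the 14 tested fibroblast and meningeal markers (right), with a symbol for each cerebellar array and a tick for each neocortical array. Dcn and Lum and most markers run upward from cerebellar replicate 1, whereas Ogn, Islr, Omd and Fmod lie below 0 on all 3 cerebellar arrays.

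Summed markers of 3 other cell types lay lower on every cerebellar array than on any neocortical one, though not every marker in them did. The summed signal of 5 choroid plexus markers ran from 1276 to 1693 units on cerebellar and from 5144 to 6397 units on neocortical arrays, with Folr1 and Otx2 lower in cerebellar astrocytes and Kl at or below the floor on every array. The cerebellar mean of Otx2, 150 units, was below the 183.7 units needed to enter the test. Otx2 entered through its neocortical values, with a mean of 1536 units, so no fold is given. Ttr, the third choroid plexus marker tested, did not pass, with 341.6, 547.3 and 501.1 units on the cerebellar arrays and 1301, 1379 and 175.4 units on the neocortical arrays. For 6 oligodendrocyte lineage markers the summed signal ran from 9908 to 16384 units on cerebellar and from 30210 to 33388 units on neocortical arrays, a separation that Olig1 carried. Olig1 was 3.33-fold lower in cerebellar astrocytes (limma adjusted p = 0.00129), whereas Mbp, which encodes myelin basic protein, was higher, at 1237, 947.5 and 788.3 units on the cerebellar arrays against 209.0, 58.8 and 288.4 units on the neocortical arrays (adjusted p = 0.0133). Without Olig1, the other 5 markers summed to 2188 to 3401 units on cerebellar and 2323 to 2755 units on neocortical arrays, which overlapped. For 8 mural markers it ran from 126430 to 156230 units on cerebellar and from 166120 to 191670 units on neocortical arrays, nearly all of it from the contractile protein genes Acta2 and Tagln. Acta2 was 1.30-fold lower and Vtn (vitronectin) was higher in cerebellar astrocytes (limma adjusted p = 0.0342 and 0.0311). The neocortical means of Vtn and Mbp, 235 and 185 units, lay in the range of the bacterial controls. Without Acta2 and Tagln, the sum of the other 6 mural markers was higher on every cerebellar array, at 8116 to 9669 units, against 6517 to 7609 units on the neocortical arrays. The full sums of these 3 lists each gave a two-sided exact permutation p of 0.1, the smallest possible. The sums of 7 endothelial, 8 microglial and 8 neuronal markers overlapped between the groups (exact permutation p = 0.7, 0.8 and 1). All 10 astrocyte markers were tested, of which 1 was higher, 4 were lower and 5 did not pass. Over all genes 5.40% were higher and 7.47% lower. The median log2 difference of the 10 was -0.69, against -0.0151 over all genes. Ntsr2 was 12.97-fold lower, Glul, Slc1a3 and Aldoc were 1.757-fold, 1.745-fold and 1.735-fold lower, and Aqp4 was 1.539-fold higher. The summed signal of the 10 ran from 154370 to 224070 units on cerebellar and from 216910 to 269230 units on neocortical arrays (exact permutation p = 0.3). In order of replicate number, the astrocyte sum was 154370, 224070 and 223720 units on the cerebellar arrays. On the neocortical arrays it was 216910, 269230 and 245600 units. The cerebellar sum was the lower at each number, but whether arrays that share a number were paired is not known. As a measure of RNA quality, the Gapdh control signal at the 3′ end over that at the 5′ end ran from 0.913 to 1.07 on cerebellar and from 0.865 to 0.883 on neocortical arrays, with no overlap. The same ratio for beta-actin ran from 1.42 to 1.62 on cerebellar and from 1.35 to 1.44 on neocortical arrays, which overlapped. The part of these cells and of RNA integrity in the differences of Ogn, Fmod, Omd and Islr was not tested.

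The genes whose log2 profile over the 6 arrays, centred on each gene's mean, lay nearest to that of Ogn were Hs3st3a1, a heparan sulphate sulphotransferase, Chil1, a chitinase-like secreted protein, St6galnac5, a sialyltransferase, Meis2, a homeodomain factor, and Tfcp2l1, a transcription factor. Their root mean square distances were 0.198, 0.224, 0.235, 0.257 and 0.269 log2 units, and their lower level in cerebellar astrocytes follows from how they were chosen. Among the other tested genes of the 10 the nearest to Ogn was Islr, at 0.73, followed by Fmod at 0.861 and Omd at 0.881. Meis2 read 1754 ± 330 units in cerebellar and 8496 ± 741 units in neocortical astrocytes (SD, n = 3 each). The cerebellar means of Hs3st3a1, Chil1 and St6galnac5, at 99.0 to 235 units, lay in the range of the bacterial controls, so their order among the 5 carries little weight. Nearest to Dcn were Col3a1 at 0.233, the collagen-degrading protease gene Ctsk at 0.244, the carboxypeptidase gene Cpz at 0.29, the polysialyltransferase gene St8sia4 at 0.295 and Lhfpl2 at 0.33, none of which passed the regional test. Lum lay at 0.393 from Dcn, nearer than any other of the 10 genes.

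Most collagens and other fibril proteins that the family binds did not pass the test. Of 23 measured and tested, 4 were higher, 2 were lower and 17 did not pass, where 5.40% of all genes were higher and 7.47% lower, with a median log2 difference of 0.079 against -0.0151 over all genes. The minor fibrillar collagen Col11a1 was 3.47-fold lower in cerebellar astrocytes (3234 ± 340 and 11186 ± 503 units, SD, n = 3 each, limma adjusted p = 4.14e-05), and Col12a1 was 1.70-fold lower (adjusted p = 0.00183). Thrombospondin 2 (Thbs2) was 3.32-fold higher (adjusted p = 0.000814), and Pcolce, which enhances procollagen processing, was 2.33-fold higher (adjusted p = 0.0126). Matrilin 2 (Matn2) was 1.91-fold and fibronectin (Fn1) 1.90-fold higher, with adjusted p of 0.00254 and 0.00341. The second probe set of Matn2 did not pass (log2 difference 0.61, limma adjusted p = 0.0599). That of Fn1 passed at 2.04, against 0.93 for the brightest. The other probe sets of Thbs2 passed at 0.99 and 1.01, against 1.73 for the brightest. The main fibrillar collagens did not pass: Col1a1 had a log2 difference of 0.94 (adjusted p = 0.068), Col1a2 of -0.19 and Col3a1 of 0.90. The second probe set of Col1a1 gave -0.092 (limma adjusted p = 0.8). Col5a1 did not pass by its brightest probe set (adjusted p = 0.0827). Its other probe sets were called higher, at 0.68 and 0.74 (limma adjusted p = 0.04475 and 0.04746). Of 8 other genes listed with the leucine-rich proteoglycan family on the array, none passed, 3 of them tested with limma adjusted p from 0.358 to 0.88 and 5 too dim to be tested.

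A list of receptors and ligands linked to the family held 27 measured genes. Of these, 6 were higher, 4 were lower, 14 did not pass and 3 were too dim. So 10 of 24 tested were called, where 12.9% of all genes were. The transforming growth factor beta receptors Tgfbr1, Tgfbr2 and Tgfbr3 were higher in cerebellar astrocytes. Tgfbr3 (betaglycan) read 4392, 7611 and 8805 units on the cerebellar arrays and 2115, 2529 and 2389 units on the neocortical arrays (log2 difference 1.51 ± 0.23, SE, limma adjusted p = 0.00433). Tgfbr2 and Tgfbr1 had smaller log2 differences of 0.67 and 0.50 (adjusted p = 0.00777 and 0.0473). The ligand Tgfb2 was lower, at 2373 ± 182 and 4116 ± 511 units (SD, n = 3 each, limma adjusted p = 0.00635), as was the bone morphogenetic protein Bmp6 (log2 difference -0.72). Of the growth factor receptors and ligands, Kdr was 2.96-fold lower and Hgf was also lower, with a cerebellar mean of 210 units in the range of the bacterial controls against 465 units in neocortical astrocytes. Met, the receptor of Hgf, and the platelet-derived growth factor gene Pdgfa were higher, by 1.53-fold and 1.47-fold (limma adjusted p = 0.0497 and 0.0372). The purinergic receptor P2rx7, a target of biglycan signalling, was 3.36-fold higher (3746 ± 527 and 1112 ± 104 units, SD, n = 3 each).

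Enzymes that build and sulphate the sugar chains were mostly not past the threshold. Of 33 measured, 1 was higher, 4 were lower, 23 did not pass and 5 were too dim, 5 of 28 tested against the 12.9% of all genes, with a median log2 difference of -0.026. The chondroitin sulphotransferases Chst11 and Chst7 were lower in cerebellar astrocytes (limma adjusted p = 0.00942 and 0.0166). The size was 1.77-fold for Chst11, whereas the cerebellar mean of Chst7, 213 units against 596 units in neocortical astrocytes, lay in the range of the bacterial controls. Chst2, which sulphates N-acetylglucosamine, was 1.62-fold lower and Papss2, which makes the sulphate donor, 2.66-fold lower. The sulphate transporter Slc26a2 was 1.83-fold higher (1527 ± 199 and 829 ± 65.7 units, SD, n = 3 each). Of 15 proteases and their inhibitors, 2 were higher, none was lower, 9 did not pass and 4 were too dim, so that 2 of 11 tested were called, against 12.9% of all genes. The inhibitor Timp1 was 3.10-fold higher (limma adjusted p = 0.00201). The tolloid-like protease gene Tll1 read 899.6, 197.2 and 679.3 units on the cerebellar arrays and 123.3, 128.4 and 100.6 units on the neocortical arrays (adjusted p = 0.0407). Its neocortical values lay in the range of the bacterial controls and it entered the test through its cerebellar values, so no fold is given.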

How the data were processed

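RNA from 3 cerebellar and 3 neocortical astrocyte samples was measured on single-colour Affymetrix mouse arrays. The authors deposited linear intensities, a single value for each probe set on each array. How probes were summarised is not given in the sources used here. Deposited values had the same mean, 1500, on every array after trimming 2% at each end, and array medians from 284.7 to 361.2. No detection calls were used. After 64 control probe sets were left out, intensities were quantile normalized, raised to a floor of 62.2 (the 20th percentile) and taken to log2. The 27022 probe sets with a mean at or above the 40th percentile were fitted with limma 3.58.1 in R 4.3.3 (variance trend, two-sided, Benjamini-Hochberg over all of them, threshold 0.05), with cerebellar minus neocortical as the difference. The fit was tested on simulated data. Errors of differences are standard errors, and means and SDs are of quantile-normalized signal in arbitrary units. Array number, 3 per group, limits the precision.

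Names came from the platform annotation, which gave 1 symbol for 34945 probe sets, several for 932 and none for 9160, and the Entrez IDs of 34741 of those with 1 symbol matched RefSeq's table of GRCm38.p6 genes. Each gene was read from its brightest probe set. The 10 genes, the lists and the settings were chosen with earlier results of these data known. All 10 genes are named with every probe set. In the lists other than markers, and in the fibroblast and meningeal list, up to 6 genes were named, first those past the threshold by size and then the brightest. Tgfbr1, Tgfbr2, Met, Pdgfa, Islr2, Col5a1 and Slc22a6 fall outside this rule and were named after their values were seen. So were the other cell type markers Folr1, Otx2, Kl, Ttr, Olig1, Mbp, Acta2, Tagln, Vtn, Pecam1 and Mog. The same holds for the astrocyte markers Ntsr2, Glul, Slc1a3, Aldoc and Aqp4. The marker sums without Olig1, or without Acta2 and Tagln, were also added after seeing the data. The 5 genes with the smallest root mean square distance were named for Ogn and for Dcn. Both groups carry replicate numbers 1, 2 and 3 in the labels. Arrays with the same number had weak positive correlations of 0.182, 0.186 and 0.101 between their deviations from the group mean. Arrays with different numbers had correlations from -0.184 to 0.0261. Centring each group on its mean ties these values to each other, so their contrast cannot show that the arrays were paired. A fit with the replicate number as a block was also made. The other alternatives were other scalings, floors, filters and variance models, other ways to read a gene's probe sets, and leaving out each array.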

Additional observations from a re-analysis of the deposited data

How the results depend on the processing

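The lower calls of Ogn and Islr held in all 17 alternatives. The lower call of Fmod was lost in 6 of 17 and that of Omd in 3 of 17, among them the fit with no filter on dim probe sets (adjusted p = 0.203 and 0.0604) and, for Fmod, the fit without a variance trend (0.102). The count of lower genes among the 10 was therefore 2 with no filter, and 2 to 4 when an array was left out. The count of higher genes was 1 with the replicate block, through Bgn (adjusted p = 0.00155), and 0 to 2 when an array was left out, the 2 being Dcn and Lum without cerebellar replicate 1. The replicate block changed no other call among the 10 genes. With an array left out, the log2 difference of Dcn ran from -0.11 to 1.52 and that of Prelp from -0.42 to 0.029, both turning sign without cerebellar replicate 3. Among all 27022 probe sets tested, 1337 were higher and 1567 lower in cerebellar astrocytes. The higher count was 821 with arrays scaled by the median, against 2121 lower, and 1602 with the values as deposited, against 1459 lower. It was 577 with no filter and 678 without a variance trend, where the lower counts were 704 and 928. Leaving out an array gave 550 to 1242 higher and 668 to 1560 lower. Scaling by the median moved the median log2 difference of all probe sets to -0.0964, against 0.00933 with quantile normalization, and changed no call among the 10 genes. The causes were not tested. Without detection calls, what counts as dim rests on the bacterial controls and the filter.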
